A study of Rattus norvegicus with 22 samples.

Results

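The interferon signalling and RNA sensor genes described here are Stat2, Irf1, Irf8, Irf9, Gbp2, Ddx58, Ifih1 and Socs1. They were chosen by name: every probe that is not a control and whose gene name on the array, ignoring case, is one of these was taken. The 8 genes, of 26276 gene names on the array, are represented by 9 of its 30367 probes, since Irf1 has 2.

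Liver RNA of 22 male Sprague-Dawley rats, 8 weeks old when feeding began, was hybridised to Agilent 2-colour rat expression arrays, 1 array per rat. According to the labels, each rat's RNA carried Cy5 and a common reference Cy3 on all 22 arrays, with no dye swaps; the text of the methods assigns the dyes in another way, and the labels were followed. The reference is described as 1 pool of liver RNA from healthy rats aged 10 weeks that were not part of the feeding. Values are log2 ratios of rat to reference, so a value of 0 means the same signal in both dyes.

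There were 4 groups, named by diet and months of feeding. CD 3 (5 rats) and CD 14 (6 rats) were fed a semi-synthetic control diet for 3 and 14 months. BD 3 (5 rats) and BD 14 (6 rats) were fed the BASE-diet for the same times. In the BASE-diet, salmon fat (6%) took the place of lard, and hydrolysed linden inflorescence extract (8%), puree of giant pumpkin (8%) and 1% of 2 probiotic strains (Lactobacillus acidophilus LA-5 and Bifidobacterium animalis lactis) were added. The comparison of diets asks what the BASE-diet did to the liver at each time, and the comparison of times asks what differed between the feeding periods, at whose ends the rats also differed in age. Age and feeding time cannot be told apart.

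As background, interferons bind receptors on the cell surface whose Janus kinases phosphorylate STAT factors. Type I interferons bring Stat2 and Irf9 into the complex ISGF3, which binds interferon-stimulated response elements, while interferon gamma acts through gamma-activated sites and switches on genes such as Irf1 and the guanylate-binding proteins. Inside the cell, RIG-I (the product of Ddx58) and MDA5 (of Ifih1) recognise viral RNA and signal through Mavs to the interferon genes, and in the liver both hepatocytes and the resident macrophages, the Kupffer cells, respond to interferon.

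The arrays held liver RNA by their markers. All 9 hepatocyte markers examined, of which Ttr was the most abundant, were well above background on all arrays. The log2 of their summed quantile-normalized Cy5 signal averaged 19.87 ± 0.16 (SD) over CD 3 and 19.84 ± 0.02 over BD 3. It averaged 19.91 ± 0.16 over CD 14 and 19.80 ± 0.10 over the BD 14 rats. Quantile normalization gives every array the same distribution of values, which limits how far such sums can differ. Some arrays stood apart in quality. Between 52.4% (CD 3 rat 4) and 93.6% (CD 3 rat 1) of an array's spots had a Cy5 signal well above background, and the arrays of CD 3 rat 1 and CD 14 rat 1 had 2607 and 2379 non-uniform spots. The arrays lay on 5 slides, and all arrays of a slide were scanned on the same day. Any difference between scan days therefore cannot be told apart from the slide. On slide A were 3 arrays of BD 3 with 3 of CD 14, and on slide B 2 of BD 3 with 1 of CD 3. Slide C carried all 6 of BD 14 with 2 of CD 14, slide D 3 of CD 3 alone, and slide E 1 of CD 14 with 1 of CD 3. BD 14 therefore shared no slide with either 3-month group. The number of arrays limits the precision, and the median residual SD of a tested probe was 0.53 on the log2 scale.

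A probe was tested when, on every array of at least 1 group, at least 0.5 of the probe's spots gave a Cy5 signal well above background. That left 19434 probes (64.0%), among them 7 of the 9 member probes, for 6 of the 8 genes. The probes of Stat2, Irf9, Gbp2, Ddx58, Ifih1 and the brighter probe of Irf1 were well above background on all 22 arrays. The second Irf1 probe reached that on 21 arrays, all except CD 3 rat 4. Irf8 reached it on 16 arrays and Socs1 on 10, and neither was tested in the main fit.

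No member gene passed the test in any comparison. The test was limma's, fitted over all tested probes, and called means an adjusted p under 0.05, so each count of members is given beside the share of all tested probes. The counts take each member by its brighter or only probe. In BD 3 against CD 3, 0 of 6 members were called (0% of all probes), and 0 had an unadjusted p under 0.05 (7.11%). For BD 14 against CD 14 these were 0 called (0%) and 0 unadjusted (4.6%). In CD 14 against CD 3, 0 members were called (0%), and 1, Ddx58, had an unadjusted p under 0.05 (10.1%). In BD 14 against BD 3, 0 were called (0%) and 1, Irf9, passed unadjusted (7.44%). The contrast with the most calls, BD 14 against CD 3, had 0 members called (0.314%) and 2 unadjusted, Ifih1 and Irf9 (17.1%). With both diets averaged, 14 against 3 months gave 0 members called (0.221%) and 3 unadjusted, namely Ddx58, Ifih1 and Irf9 (13.6%). With both times averaged, BASE-diet against control diet gave 0 called (0.00515%) and 0 unadjusted (7.19%). For the interaction of diet and time there were 0 called (0%) and 0 unadjusted (4.8%), and for the F test over the 4 groups 0 called (0.0257%) and 0 unadjusted (10.5%). The second Irf1 probe, left out of these counts, was called in none of the comparisons and had an unadjusted p of 0.00391 in BD 14 against CD 3, 0.0240 in BD 14 against BD 3, 0.0115 with time and 0.0235 in the F test.

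The one-way ANOVA and Tukey's test named in the methods also called 0 members by their brighter probes. Of these member probes 0 had an unadjusted p under 0.05 in either test. Over all probes the ANOVA called 1 and had 2083 at an unadjusted p under 0.05. Tukey's test called 0 or 1 of all probes, depending on the pair of groups. Its number at an unadjusted p under 0.05 was lowest for BD 14 and CD 14 (195) and highest for BD 14 and CD 3 (1281). The second Irf1 probe had an unadjusted p of 0.0407 in the ANOVA (adjusted p = 0.442) and of 0.0334 in Tukey's test of BD 14 against CD 3. There was no member whose values in a pair of groups did not overlap. Such a gap was shown by 0.756% of all tested probes in BD 3 against CD 3, 0.767% in BD 14 against CD 14, 0.515% in CD 14 against CD 3, 2.26% in BD 14 against BD 3 and 1.44% in BD 14 against CD 3. The lowest adjusted p of a member's brighter or only probe was 0.242, for Irf9 in BD 14 against CD 3. In bulk RNA, fewer cells of a type and less RNA per cell cannot be told apart.

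**Figure D1:**
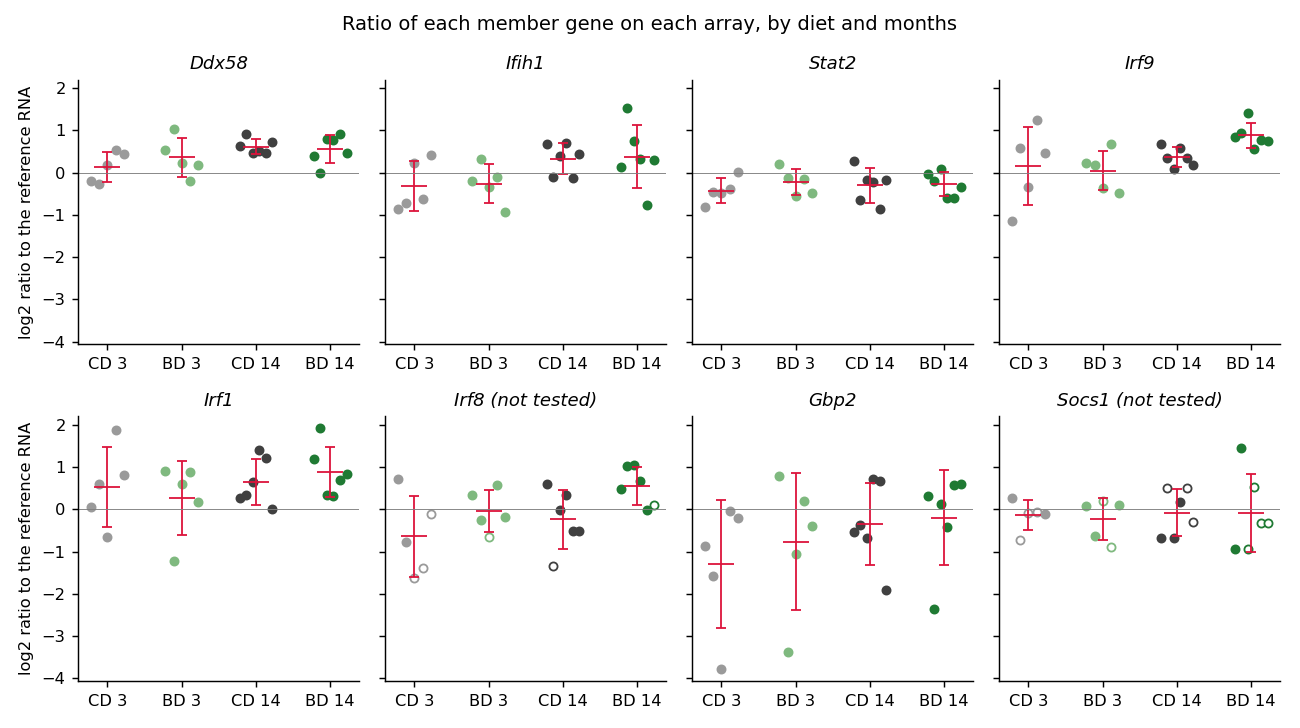
The log2 ratio of each member gene to the reference RNA on each array, by diet and months of feeding; each point is 1 rat, bars give the group mean and SD, and open points were not well above background. In each panel the points of every pair of groups overlap, and the widest spread is that of Gbp2.

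The RNA sensors come first. Ddx58 encodes RIG-I, a helicase that detects RNA with a 5′ triphosphate. Its probe lies at chr5:57598203-57598262 on the minus strand of rn4, the rat build used by the files. In CD 3, rats 1 to 5 had ratios of −0.19, −0.26, 0.17, 0.52 and 0.43. In BD 3 they were 0.54, 1.03, 0.23, −0.21 and 0.19. The lowest, median and highest ratios were 0.46, 0.57 and 0.91 in CD 14 and −0.00, 0.62 and 0.91 in BD 14. Every CD 14 rat lay above all CD 3 rats except rat 4, which was the highest there, while BD 3 and BD 14 overlapped over most of their range. CD 3 rats averaged 0.13 ± 0.35 (SD), BD 3 rats 0.36 ± 0.46, CD 14 rats 0.61 ± 0.18 and BD 14 rats 0.56 ± 0.34. Ddx58 was higher by 0.48 in CD 14 than in CD 3 (95% interval 0.03 to 0.93, adjusted p = 0.464). BD 14 differed from BD 3 by 0.20 (−0.25 to 0.65), and by 0.06 to 0.37 with each array left out in turn. Averaged over diets, the difference with time was 0.34 (0.02 to 0.66, adjusted p = 0.338).

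Ifih1 encodes MDA5, the helicase that detects long double-stranded RNA, and is measured at chr3:44551104-44551163 on the minus strand. Rats 1 to 5 of CD 3 had ratios of −0.87, −0.71, 0.23, −0.63 and 0.41. Those of BD 3 had −0.21, 0.31, −0.34, −0.11 and −0.94. The lowest, median and highest were −0.12, 0.42 and 0.69 in CD 14 and −0.77, 0.31 and 1.53 in BD 14. CD 3 split into 3 low rats and 2 that lay inside the range of CD 14, and BD 14 held both the highest rat of all groups and a rat as low as the low ones of CD 3. The 3-month means were −0.32 ± 0.59 on control diet and −0.26 ± 0.45 on BASE-diet, and the 14-month means 0.33 ± 0.37 and 0.38 ± 0.75. By ratio, the difference of Ifih1 with time was 0.65 (−0.04 to 1.33) between the CD groups and 0.64 (−0.05 to 1.32) between the BD groups, and by Cy5 alone 0.62 and 1.14. With each array left out in turn the ratio differences went from 0.51 to 0.83 and from 0.41 to 0.86. Averaged over diets it was 0.64 (0.15 to 1.13, adjusted p = 0.246). BD 14 was above CD 3 by 0.69 (0.00 to 1.38, adjusted p = 0.290). In the quantile-normalized Cy5 signal alone that difference was 1.23 with an adjusted p of 0.0447, when 544 of all tested probes were called. It was the only setting in which Ifih1 was called, and with the slide as a block the adjusted p was 0.864.

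Stat2 and Irf9 are subunits of ISGF3. Stat2, which carries the activation domain, is measured at chr7:1580592-1580651 on the plus strand. Its ratios in CD 3 rats 1 to 5 were −0.82, −0.45, −0.49, −0.40 and 0.00. In BD 3 they were 0.19, −0.13, −0.55, −0.15 and −0.49. CD 14 had a lowest, median and highest ratio of −0.87, −0.21 and 0.28, and BD 14 of −0.60, −0.27 and 0.08. The ranges of the 4 groups overlapped. With the smallest standard errors among the members, Stat2 gave the narrowest intervals: 0.04 (−0.27 to 0.35, adjusted p = 0.947) for 14 against 3 months and 0.12 (−0.19 to 0.43) for BASE-diet against control diet.

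Irf9, the DNA-binding subunit of ISGF3, is measured at chr15:33744491-33744550 on the plus strand. CD 3 rats 1 to 5 had ratios of −1.14, 0.59, −0.34, 1.24 and 0.46. BD 3 rats had 0.23, 0.18, −0.37, 0.67 and −0.47. The lowest, median and highest were 0.07, 0.34 and 0.67 in CD 14 and 0.56, 0.81 and 1.40 in BD 14. BD 14 was the highest group, yet the highest rats of the other groups reached into its range, and CD 3 was spread from below to near the top of all values. The 3-month means were 0.16 ± 0.92 on control diet and 0.05 ± 0.47 on BASE-diet, and those at 14 months 0.36 ± 0.23 and 0.88 ± 0.29. Irf9 was above BD 3 in BD 14 by 0.83 (0.19 to 1.48, adjusted p = 0.542). Against CD 14, BD 14 was higher by 0.51 (−0.10 to 1.13). The difference of CD 14 from CD 3 was 0.20 (−0.44 to 0.85), and it was −0.18 when CD 3 rat 1 and CD 14 rat 1, with their many non-uniform spots, were left out, a choice made after the data were seen. The averaged difference with time was 0.52 (0.06 to 0.97, adjusted p = 0.312), and the interaction of diet and time was 0.63 (−0.28 to 1.54).

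Irf1, a factor induced by interferon gamma that switches on further interferon-stimulated genes, is reported by 2 probes. The brighter lies at chr10:39227520-39227579 on the plus strand. Its ratios in CD 3 rats 1 to 5 were 0.04, 0.59, −0.66, 1.88 and 0.80. In BD 3 they were 0.90, −1.22, 0.59, 0.89 and 0.17. CD 14 went from 0.02 through a median of 0.49 to 1.39, and BD 14 from 0.32 through 0.77 to 1.91. Single rats were high in CD 3 (rat 4) and in BD 14, rat 2 of BD 3 was the lowest of all, and the groups overlapped. Averaged over diets, this probe was higher at 14 months by 0.36 (−0.26 to 0.99, adjusted p = 0.636).

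The second Irf1 probe maps to chr10:39224461-39224695. Its ratios in CD 3 were −0.15, 1.47, −0.64, −2.48 and 0.11 in rats 1 to 5, where the value of rat 4 was not well above background. In BD 3 they were 0.55, −0.66, 0.15, 0.74 and −0.25. CD 14 had −1.04, 0.66 and 1.52 as lowest, median and highest, and BD 14 had 0.55, 1.26 and 2.56. CD 3 rat 4 was the highest rat of its group by the brighter probe and the lowest by the second. The correlation of the 2 Irf1 probes over the 22 arrays was r = 0.34 (Spearman 0.53), and 0.11 without the 2 arrays farthest from the median. Averaged over diets, the second probe was higher at 14 months by 1.07 (0.27 to 1.88, adjusted p = 0.241), the largest such difference among the tested member probes. By this probe BD 14 was above CD 3 by 1.78 (0.64 to 2.92, adjusted p = 0.116) and above BD 3 by 1.33 (0.19 to 2.47, adjusted p = 0.598). In Cy5 alone these differences were 1.99 (adjusted p = 0.0754) and 0.22 (adjusted p = 0.893), and in the reference dye alone 0.22 and −1.01 (unadjusted p = 0.0471, adjusted p = 0.304), so the ratio difference from BD 3 lies mostly in the reference dye. The ratio difference of BD 14 from CD 3 was lowest, 1.24, without CD 3 rat 4, the rat whose value was not well above background. Without CD 3 rat 2 it was highest, 2.23 with an adjusted p of 0.0175, and 1411 of all tested probes were then called in place of 61. With each array left out in turn its adjusted p went from 0.0175 to 0.300.

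Irf8 is a factor of myeloid cells, the lineage of macrophages and dendritic cells, and its probe is at chr19:51116671-51116730. It was well above background on 2 CD 3, 4 BD 3, 5 CD 14 and 5 BD 14 arrays, so its values describe a dim probe outside the main test. With no filter on dim probes it was called in no comparison. CD 3 rats 1 to 5 had ratios of 0.71, −0.78, −1.63, −1.40 and −0.11. BD 3 rats had 0.33, −0.26, −0.65, 0.56 and −0.19. The lowest, median and highest were −1.34, −0.26 and 0.61 in CD 14 and −0.01, 0.58 and 1.05 in BD 14. CD 3 rat 1 was inside the range of BD 14, as was the upper end of each other group. The mean was highest in BD 14 (0.55 ± 0.45), above CD 14 (−0.24 ± 0.70) by 0.79, BD 3 (−0.04 ± 0.49) by 0.60 and CD 3 (−0.64 ± 0.96) by 1.20. The log2 values in the deposited table, which fills in dim spots and is shifted by a constant for each probe, had means that gave 0.82, 0.60 and 1.40 for these 3 differences; 1 of its CD 3 columns matches no array used here.

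Gbp2, a guanylate-binding GTPase that attacks the membranes around intracellular pathogens, had the widest spread of the members. It is measured at chr2:240541001-240541060 on the plus strand. Its ratios in CD 3 rats 1 to 5 were −0.87, −1.58, −3.77, −0.04 and −0.20. In BD 3 they were 0.79, −3.38, −1.05, 0.20 and −0.40. CD 14 went from −1.90 through a median of −0.46 to 0.71, and BD 14 from −2.36 through 0.22 to 0.60. The lowest rat of each group was CD 3 rat 3, BD 3 rat 2, CD 14 rat 6 and BD 14 rat 2, and the groups overlapped. Means and SDs were −1.29 ± 1.52 for CD 3, −0.77 ± 1.61 for BD 3, −0.36 ± 0.97 for CD 14 and −0.20 ± 1.13 for the BD 14 rats. The difference with time was 0.75 (−0.32 to 1.83, adjusted p = 0.548) and that with diet 0.34 (−0.74 to 1.42). With each array left out in turn they went from 0.43 to 0.97 and from 0.03 to 0.67.

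Those 4 low ratios went with a high signal in the reference dye. The quantile-normalized log2 Cy3 signal of Gbp2, which by the labels comes from a common reference RNA, was 12.13 for CD 3 rat 3, 11.91 for BD 3 rat 2, 12.02 for CD 14 rat 6 and 11.83 for BD 14 rat 2. On the other 18 arrays it went from 7.94 to 9.03. In Cy5, the liver's own dye, the same rats had 8.64, 8.51, 10.02 and 9.50, inside or at the upper end of the range of 6.61 to 10.02 over all rats. The 4 arrays lay in 4 groups and on 4 slides. Over all arrays the SD of Gbp2 was 1.36 in the reference and 0.88 in Cy5, against medians of 0.48 and 0.64 over all tested probes, and 263 probes (1.35%) had a reference SD at least as large. The Irf1 reference signal on these arrays was 11.85, 11.81, 11.45 and 12, above the 10.36 to 11.13 of the others. Genes whose reference signal followed that of Gbp2 most closely, picked after the values were seen, were Hk3, Ly86, Ifitm1, Ptpn7 and RT1-Da. A fit of the reference dye alone over the groups called 0 members by limma, and 0 to 4 of all tested probes in a comparison. It had 650 of the 19434 probes at an unadjusted p under 0.05 with time, 3155 in BD 14 against BD 3 and 4193 for the interaction, beside 2647, 1446 and 932 by ratio. From Cy5 alone, the difference of Gbp2 with time was 0.58, with an adjusted p of 0.520. What set the reference signal on these 4 arrays was not tested, nor was it tested that they carried the same pool as the others, so the Gbp2 ratios of these 4 rats may not be on the scale of the rest.

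**Figure D2:**
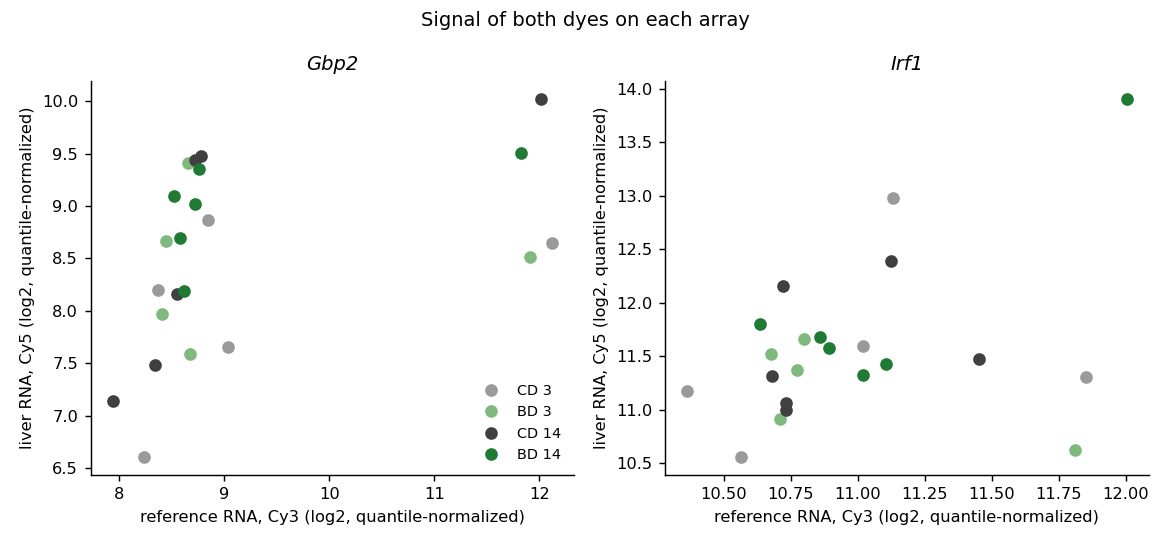
The quantile-normalized log2 signal of the liver RNA (Cy5) against that of the reference RNA (Cy3) on each array, for Gbp2 and Irf1, with groups by colour. For Gbp2, 4 arrays lie between 11.83 and 12.13 in the reference and the other 18 between 7.94 and 9.03.

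Socs1, induced by STATs and an inhibitor of Janus kinases, closes the feedback loop. Its probe at chr10:4820384-4820443 was well above background on 2 CD 3, 3 BD 3, 3 CD 14 and 2 BD 14 arrays and was outside the main test. Its ratios went from −0.72 to 0.26 for CD 3, −0.90 to 0.20 for BD 3, −0.69 to 0.51 for CD 14 and −0.95 to 1.45 for BD 14 rats. The group means, from −0.23 ± 0.50 in BD 3 to −0.08 ± 0.55 in CD 14, lay closer together than the SD of any group.

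Taking the 6 tested genes by their brighter probes, 6 were higher at 14 than at 3 months averaged over diets, with a median difference of 0.44, beside 58.3% of all tested probes and a median of 0.06. With BASE-diet against control diet 5 were higher, with a median of 0.10, beside 57.2% and 0.05. The diet comparison at 3 months had 4 higher and a median of 0.13 (53.6% and 0.03 over all probes), and that at 14 months 5 and 0.10 (56.3% and 0.05). For time, CD 14 against CD 3 had 6 higher and a median of 0.34 (53.4% and 0.03), and BD 14 against BD 3 had 5 and 0.59 (58.7% and 0.07). These comparisons share groups.

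For the diet, without a slide block and averaged over both times, the difference was 0.08 (−0.24 to 0.40) for Ddx58, 0.05 (−0.44 to 0.54) for Ifih1, 0.20 (−0.26 to 0.65) for Irf9 and −0.01 (−0.64 to 0.61) for the brighter Irf1 probe. For the second Irf1 probe it was 0.70 (−0.10 to 1.51, adjusted p = 0.695). With each array left out in turn that of Irf9 went from 0.04 to 0.33. With the slide as a fixed block the diet difference was 0.51 for Irf9, −0.11 for the second Irf1 probe and −0.87 for Gbp2. The last 2 lay outside the intervals given without the block. Under that block CD 3 was represented only by rats 1 and 5, since its other rats shared no slide with another group. At 3 months the diet difference of Ddx58 was 0.22 (−0.25 to 0.69), falling to 0.06 without BD 3 rat 2 and rising to 0.36 without BD 3 rat 4, and at 14 months −0.06 (−0.49 to 0.37). The interaction, the diet difference at 14 months less that at 3 months, had an adjusted p of 0.999 for every member probe. It was −0.36 (−2.52 to 1.79) for Gbp2, whose interval was the widest, and −0.18 (−0.80 to 0.44) for Stat2.

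Fitting the slide as a block changed the time differences unequally. Slide D held CD 3 alone, so its 3 arrays add nothing to a time or diet difference under a fixed slide block. CD 3 was then represented by rat 1 on slide B and rat 5 on slide E. The array of CD 3 rat 1 had 2607 non-uniform spots. With the slide as a fixed block, which compares arrays within slides, the difference of 14 from 3 months was 0.68 (0.05 to 1.31) for Ddx58, 0.72 (−0.32 to 1.77) for Ifih1, 0.60 (−0.29 to 1.49) for Irf9 and 0.35 (−0.28 to 0.98) for Stat2. These had the direction of the unblocked values. For Gbp2 it was −1.17 (−3.30 to 0.95), for the brighter Irf1 probe −0.60 (−1.85 to 0.64) and for the second −0.06 (−1.71 to 1.58), each opposite in direction to the unblocked value. Slides B, C, D and E each held 1 of the 4 arrays with a high Gbp2 reference signal, so the Gbp2 ratios compared within slides B, C and E depend on that signal. The adjusted p was 1.00 for all member probes. With the slide as a random block the differences were 0.39 for Ddx58, 0.65 for Ifih1, 0.50 for Irf9, 0.09 for Stat2, 0.20 and 0.91 for the Irf1 probes and 0.47 for Gbp2.

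**Figure D3:**
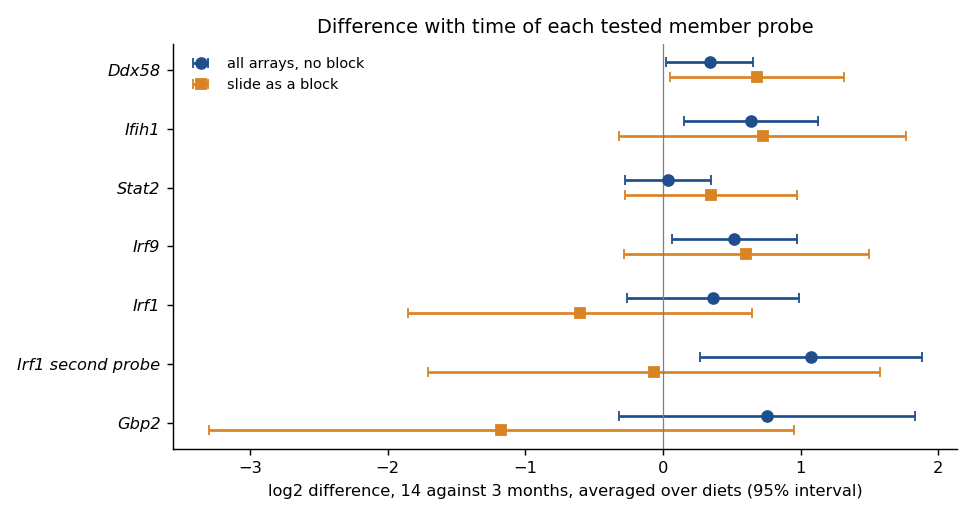
The log2 difference of 14 from 3 months, averaged over diets, for each tested member probe, with 95% intervals, from all arrays without a block and with the slide as a block. Ddx58 (0.34 and 0.68), Ifih1 (0.64 and 0.72) and Irf9 (0.52 and 0.60) lie above 0 in both fits, while Gbp2 (0.75 and −1.17) and Irf1 change sign.

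Within single slides the numbers of arrays were small. On slide E, with 1 array of each, CD 14 less CD 3 was 0.29 for Ddx58, 0.03 for Ifih1, −0.28 for Irf9, −0.19 for Stat2, −0.79 and −1.16 for the Irf1 probes, −1.71 for Gbp2, −0.40 for Irf8 and −0.19 for Socs1. On slide A, 3 CD 14 arrays less 3 BD 3 arrays, which differ in diet too, gave 0.59 for Ddx58, 0.79 for Ifih1, 0.42 for Irf9, 0.21 for Stat2, −0.14 and 0.29 for the Irf1 probes, −0.12 for Gbp2, −0.16 for Irf8 and −0.08 for Socs1. The CD 14 array of slide E, that of rat 6, is 1 of the 4 with a high Gbp2 reference signal. In Cy5 alone Gbp2 was 10.02 there and 8.20 in CD 3 rat 5, so it was higher at 14 months on that slide by Cy5 and lower by ratio. The same held for the brighter Irf1 probe, with 11.47 and 11.18 in Cy5. For the diet at 3 months, slide B (2 BD 3 and 1 CD 3) gave 0.98 for Ddx58, 0.92 for Ifih1, 1.34 for Irf9, 0.85 for Stat2, −0.20 and 0.09 for the Irf1 probes, −0.43 for Gbp2, −0.68 for Irf8 and −0.54 for Socs1. At 14 months, slide C (6 BD 14 and 2 CD 14) gave 0.07 for Ddx58, 0.09 for Ifih1, 0.42 for Irf9, 0.27 for Stat2, −0.42 and 0.24 for the Irf1 probes, −0.89 for Gbp2, 0.64 for Irf8 and −0.43 for Socs1. Irf8 and Irf9 were higher in BD 14 within this slide as well. The 1 CD 3 array of slide B, that of rat 1, had the most non-uniform spots of all arrays (2607). All slide B differences are taken from that single array. On slide B, BD 3 rat 2 and on slide C, BD 14 rat 2 have the high Gbp2 and Irf1 reference signals. In Cy5 the brighter Irf1 probe on slide B was 11.52 and 10.62 in BD 3 rats 1 and 2 and 10.56 in CD 3 rat 1, so both were above it. Gbp2 in Cy5 was 9.41 and 8.51 in those BD 3 rats and 6.61 in CD 3 rat 1. There Gbp2 was higher in BD 3 by Cy5 and lower by ratio. On slide C, Gbp2 in Cy5 averaged 8.97 in BD 14 and was 9.44 and 9.48 in CD 14 rats 4 and 5. The brighter Irf1 probe in Cy5 averaged 11.95 in BD 14 and was 12.16 and 12.39 in those CD 14 rats. Both were thus lower on average in BD 14 on slide C by Cy5 as well as by ratio.

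The members varied together only in part. Over the 22 arrays the highest of 21 correlations between tested member probes was that of Irf1 with Gbp2, r = 0.59 (Spearman 0.62), and 0.74 without the 2 arrays farthest from the median. Stat2 and Ifih1 followed with r = 0.54 (0.55), and Irf1 and Irf9 with 0.52 (0.57). The 2 sensors had r = 0.23 (0.28). Irf9 and Ddx58 had 0.32 by ratio and 0.81 by the Cy5 signal alone. All ratios are taken against the reference dye.

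The other genes whose ratios followed each member most closely over the 22 arrays were found over all tested named genes, and these ratios too are all taken against the reference dye. For Irf1 they were Gbp5 (r = 0.91, Spearman 0.88), a further guanylate-binding protein, then Jak2 (0.84), a kinase of the interferon gamma receptor, and Cxcl1 (0.83), a chemokine that draws neutrophils. Leaving out the 4 arrays of high Gbp2 reference signal, on which that of Irf1 was high too, these r were 0.79, 0.55 and 0.80. For Irf9 they were Herc6 (0.89, Spearman 0.85), a ubiquitin ligase, Oas1a (0.85), which makes the messenger that activates RNase L, and Rasa4 (0.82). Gbp2 was followed by Hk3 (0.96, Spearman 0.93), a hexokinase, Ly86 (0.92), a partner of an LPS-receptor relative, and Psmb10 (0.92), a subunit of the immunoproteasome. The reference signals of Hk3 and Ly86 followed that of Gbp2 with r = 0.98 each, and the Gbp2 ratio followed its own reference signal with r = −0.82 and its own Cy5 with 0.15. Without the 4 arrays of high Gbp2 reference signal the r by ratio was 0.89 for Hk3, 0.77 for Ly86 and 0.73 for Psmb10, and in Cy5 alone over all arrays 0.91, 0.74 and 0.56. For Ifih1 they were Twistnb (0.84, Spearman 0.79), Pak1ip1 (0.83) and Eif2ak2 (0.82), the kinase PKR that is itself a sensor of double-stranded RNA. Stat2 was nearest to Psmc2 (0.80, Spearman 0.81), Lsg1 (0.76) and Ehmt1 (0.75). By Cy5 alone those r were 0.52, 0.48 and 0.34, and the Stat2 ratio followed its own reference signal with r = −0.75. Ddx58 had looser followers, among them Tmem150c (0.69, Spearman 0.53) and Rhoc (0.69). In Cy5 alone these had r of 0.61 and 0.40.

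Other genes of the pathway were followed in lists by role. For comparison, 0.221% of all tested probes were called with time, 13.6% had an unadjusted p under 0.05 and 58.3% were higher. With diet these shares were 0.00515%, 7.19% and 57.2%. Of 9 interferon genes, 5 are on the array and only Ifna4 was tested, with a difference of −0.09 between 14 and 3 months and 0.01 between the diets. Ifna1 was well above background on 5 arrays, Ifnb1 on 6 and Ifng on 0. Among receptors and their kinases (10 listed, 6 tested) 6 were higher at 14 months, with a median of 0.27, and 0 were called. The kinase Jak2 differed by 0.53 (adjusted p = 0.289), the receptor chain Ifngr1 by 0.42 (0.416), the kinase Jak1 by 0.30 and the receptor chain Il10rb by 0.08.

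Of the other STAT and IRF factors (13 listed, 9 tested) 7 were higher at 14 months, with a median of 0.25, and 1 was called, Irf7, the factor that amplifies interferon production. Irf7 rose by 1.68 (adjusted p = 0.0136), with means of −0.75 ± 0.94 (CD 3), −0.45 ± 0.72 (BD 3), 0.96 ± 0.70 (CD 14) and 1.19 ± 0.57 (BD 14). Irf7 was higher in 8 of the 12 rats at 14 months than in any rat at 3 months. Stat3 differed by 0.36, Batf2 by 0.16 and Irf3 by −0.14, none of them called.

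The other RNA and DNA sensors and adaptors (21 listed, 13 tested) had 10 genes higher at 14 months, a median of 0.32, 0 called and 4 at an unadjusted p under 0.05. Zbp1, a sensor of Z-form nucleic acid, differed by 1.01 (adjusted p = 0.211), Eif2ak2 by 0.77 (0.160) and Adar, which edits double-stranded RNA, by 0.70 (0.319). Mavs, the adaptor of RIG-I and MDA5, differed by −0.32 (0.377). Trim25, which ubiquitinates RIG-I, differed by −0.20 and Myd88, the adaptor of Toll-like receptors, by −0.09. The other feedback inhibitors (15 listed, 14 tested) had 9 higher, a median of 0.05 and 0 called. Usp18, which removes Isg15 from proteins and blocks the type I receptor, differed by 1.81 (adjusted p = 0.113). In the other direction the inhibitors Cish, Pias4 and Rnf125 differed by −0.78, −0.49 and −0.47, with adjusted p of 0.313, 0.274 and 0.362. Ptpn6 differed by 0.21 and Nfkbia by 0.08.

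Beside Gbp2, the other interferon-induced GTPases (13 listed, 6 tested) were all higher at 14 months, with a median of 0.85; limma called 0, and 5 had an unadjusted p under 0.05. Ifi47 differed by 1.96 (adjusted p = 0.113), the antiviral Mx1 by 0.95 (0.106), Irgm by 0.75 (0.176), Mx2 by 0.41 (0.336) and Igtp by 0.14. The interferon-induced effectors (37 listed, 34 tested) had 32 higher and a median of 0.84, beside 58.3% higher over all tested probes. Of the effectors 2 were called, both higher (0.221% of all tested probes). At an unadjusted p under 0.05 were 22 higher and 1 lower (13.6% of all tested probes). The called genes were Isg15, a ubiquitin-like modifier, by 1.87 (adjusted p = 0.00427) and Oasl, a relative of the oligoadenylate synthetases, by 1.91 (adjusted p = 0.0267). Isg15 was higher in 11 of the 12 rats at 14 months than in any rat at 3 months, and Oasl in 9 of 12. On control diet the means of Oasl were −0.30 ± 1.50 at 3 and 1.21 ± 0.49 at 14 months, and on BASE-diet 0.30 ± 0.45 and 2.60 ± 0.85. It was well above background on 3 of 5 CD 3, 3 of 5 BD 3, 5 of 6 CD 14 and 6 of 6 BD 14 arrays. Oasl therefore entered the test through BD 14 alone, the group in which it was highest. With no filter on dim probes its adjusted p was 0.0497. Ifi44l differed by 1.39 (adjusted p = 0.0983), Bst2 by 0.87 (0.212), Ifi27 by 0.57 (0.126) and Oas1b by 0.08 (0.784).

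The calls of Irf7, Isg15 and Oasl were not kept with the slide as a block. As a fixed block the differences were 1.75 for Irf7, 2.08 for Isg15 and 2.36 for Oasl, as large as without it, with adjusted p of 1.00 for each. As a random block the adjusted p was 0.130 for Irf7, 0.0509 for Isg15 and 0.160 for Oasl. With normexp background correction and loess, Oasl differed by 0.53 (adjusted p = 0.158). When each array was left out in turn, Irf7 and Isg15 were called 22 of 22 times and Oasl 18 of 22 times, its call being lost without BD 3 rat 2, 3 or 5 or CD 14 rat 2 (highest adjusted p 0.0668). The adjusted p over the settings other than leaving out an array went from 0.00242 to 1.00 for Irf7 and for Oasl, and from 0.00118 to 1.00 for Isg15.

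The list medians with time under the fixed slide block were 0.35 for the effectors (28 of 34 higher), 0.29 for the GTPases (5 of 6), 0.11 for sensors and adaptors (8 of 13), 0.07 for STAT and IRF factors (5 of 9), 0.02 for receptors and kinases (3 of 6), −0.10 for the feedback inhibitors (6 of 14) and 0.18 for Ifna4. Within slide A the effectors had a median of 0.46 (28 of 34 higher) and the GTPases 0.46 (5 of 6), and within slide E 0.10 (21 of 34) and −0.11 (2 of 6). For the diet, averaged over times, limma called 0 genes in every list. The effectors had 28 of 34 higher with a median of 0.17, and 2 passed unadjusted. Over all tested probes 57.2% were higher with diet and 7.19% passed unadjusted. Blocked by slide, the effectors had 17 of 34 higher and a median of 0.01. The diet medians of the other lists were 0.12 for the feedback inhibitors (9 of 14 higher), 0.11 for receptors and kinases (5 of 6), 0.09 for the GTPases (5 of 6), 0.00 for sensors and adaptors (7 of 13) and −0.00 for STAT and IRF factors (4 of 9).

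Markers of cells other than hepatocytes were followed in the same way, and none was called. Over all tested probes 0.221% were called with time, 13.6% had an unadjusted p under 0.05 and 58.3% were higher. Of 14 listed Kupffer cell and macrophage markers, 12 were tested and all 12 were higher at 14 months, with a median of 0.76; limma called 0, and 9 had an unadjusted p under 0.05. Of these, 9 were well above background on all arrays, and C1qb was the most abundant. The log2 of the list's summed quantile-normalized Cy5 signal was 13.72, 13, 13.16, 13.45 and 14.34 in CD 3 rats 1 to 5. In BD 3 it was 14.25, 14.30, 13.90, 14.49 and 14.19. It went from 13.90 through a median of 14.81 to 16.15 in CD 14 and from 13.70 through 14.26 to 15.13 in BD 14. Rats 2, 3 and 4 of CD 3 were lowest, and CD 14 rat 6 was highest. Under the fixed slide block 3 of 12 were higher at 14 months, with a median of −0.27, and as a random block the median was 0.58. Within slide A the median was −0.06 (4 of 12 higher), and within slide E 0.01 (6 of 12). The ratio of Gbp2 followed the mean ratio of these markers with r = 0.78 over the 22 arrays (Spearman 0.69), and 0.59 without the 2 farthest arrays. The lowest mean ratios of the list were in CD 3 rat 3 (−3.03) and BD 3 rat 2 (−2.08), which are among the 4 with a high Gbp2 reference signal. Without those 4, a choice made after the values were seen, r was 0.73 by ratio. Over all 22 arrays, Gbp2 in Cy5 followed the summed Cy5 signal of the list with r = 0.61. Other lists were as close: by Cy5 the dendritic cell markers had r = 0.90 with Gbp2 (Spearman 0.90), and by ratio without those 4 arrays the T and NK cell markers had 0.74. Over all arrays by ratio these lists had 0.50 and 0.59. For Irf1 the r by ratio over all arrays was 0.41, and for Irf9 0.32. With diet 11 of 12 were higher, with a median of 0.28 and 0 called, beside 57.2% higher and 0.00515% called over all tested probes. Under the fixed slide block 6 of 12 were higher with diet, with a median of −0.03. At 14 months within slide C 1 of 12 was higher in BD 14, with a median of −0.71, and at 3 months within slide B 9 of 12 were higher in BD 3, with a median of 0.52. Their part in the members' differences was not tested.

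The remaining marker lists had 0 genes called with time or with diet, beside 0.221% and 0.00515% of all tested probes. Over all tested probes 58.3% were higher with time and 57.2% with diet. With time, 4 of 5 dendritic cell markers were higher (median 0.30; Xcr1, Itgax and Siglech were on the array and not tested), and 8 of 9 of T and NK cells (0.48; Cd3e, Cd2 and Klrd1 not tested). Of B cells 1 of 3 was higher (−0.06; Ms4a1, Cd79a, Cd22 and Blk not tested), and of neutrophils and monocytes 3 of 4 (1.31; Elane, Csf3r, Ccr2 and Mmp8 not tested). Sinusoidal endothelial markers had 3 of 5 higher (0.30), stellate cells and fibroblasts 7 of 9 (0.03), the bile duct 2 of 3 (0.65; Sox9 not tested), red cells 4 of 4 (0.47) and hepatocytes 7 of 9 (0.05). Under the fixed slide block the medians were −0.38 for dendritic, −0.21 for T and NK and −0.33 for neutrophil and monocyte markers. The ratio of Irf1 followed the neutrophil and monocyte markers with r = 0.69 (Spearman 0.57) and the dendritic cell markers with 0.62 (0.63), and that of Irf9 the dendritic cell markers with 0.59 (0.61). The part of these cells in the members' differences was not tested. With diet the medians were 0.07 for dendritic cells, −0.09 for T and NK cells, −0.02 for B cells, 0.02 for neutrophils and monocytes, −0.12 for sinusoidal endothelium, 0.13 for stellate cells and fibroblasts, 0.04 for the bile duct, −0.57 for red cells and 0.06 for hepatocytes. Within slide C, the only slide with both diets at 14 months, the medians of BD 14 less CD 14 were −0.51 for dendritic cells (1 of 5 higher), −0.59 for T and NK cells (0 of 9), −0.12 for B cells (1 of 3), −1.08 for neutrophils and monocytes (1 of 4), −0.28 for sinusoidal endothelium (1 of 5), 0.49 for stellate cells and fibroblasts (8 of 9), 0.51 for the bile duct (3 of 3), −0.57 for red cells (0 of 4) and 0.13 for hepatocytes (5 of 9).

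Promoters were looked at for the sites that the pathway's factors bind. The reason was that, averaged over diets and without a slide block, all 6 tested members were higher at 14 months. None of them passed the test. The 250 bases before the gene start were taken from RefSeq (build GRCr8) for 7 of the 8 members. No entry was matched to the name Ddx58, so its promoter was not searched. The core of the interferon-stimulated response element was searched as GAAANNGAAA and the gamma-activated site as TTCNNNGAA, on both strands. The core was found in Gbp2, Ifih1 and Socs1, against 3.41% of 33469 promoters, and the gamma-activated site in Irf1, Irf8, Irf9 and Socs1, against 7.67%. Stat2 held neither. A match is a description of the letters. The promoters of 4 members whose values are given above are printed with the match in capitals, 5′ to 3′ on the gene's strand: Gbp2 (chr2:234005477-234005726, plus strand, core beginning 31 bases before the start), Ifih1 (chr3:67683969-67684218, minus strand, core at 59 bases), Irf1 (chr10:38417685-38417934, plus strand, gamma-activated site at 142 bases) and Irf9 (chr15:33065586-33065835, plus strand, gamma-activated site at 99 bases).
Gbp2: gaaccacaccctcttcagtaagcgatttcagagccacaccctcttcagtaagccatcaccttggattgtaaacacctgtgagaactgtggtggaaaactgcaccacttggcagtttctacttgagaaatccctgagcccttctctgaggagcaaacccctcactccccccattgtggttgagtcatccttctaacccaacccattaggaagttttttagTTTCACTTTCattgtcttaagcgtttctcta
Ifih1: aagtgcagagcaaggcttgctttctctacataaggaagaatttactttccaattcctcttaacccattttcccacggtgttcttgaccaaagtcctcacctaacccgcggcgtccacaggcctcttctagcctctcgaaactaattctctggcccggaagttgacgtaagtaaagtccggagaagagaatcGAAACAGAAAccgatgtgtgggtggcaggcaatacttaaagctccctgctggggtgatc
Irf1: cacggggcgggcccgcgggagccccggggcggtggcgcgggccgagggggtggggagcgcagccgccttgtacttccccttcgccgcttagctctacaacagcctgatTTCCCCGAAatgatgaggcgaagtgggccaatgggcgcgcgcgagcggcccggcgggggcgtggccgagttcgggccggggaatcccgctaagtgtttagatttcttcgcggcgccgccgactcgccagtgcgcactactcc
Irf9: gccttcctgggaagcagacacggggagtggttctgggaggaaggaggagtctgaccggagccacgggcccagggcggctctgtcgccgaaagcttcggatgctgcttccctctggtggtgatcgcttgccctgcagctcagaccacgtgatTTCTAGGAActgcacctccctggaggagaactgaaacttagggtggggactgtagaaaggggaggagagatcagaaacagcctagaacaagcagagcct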

How the data were processed

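The authors deposited Agilent Feature Extraction output for each array (version 10.7.3.1 per the labels, 10.10.1.1 in the file headers), with probes annotated to rn4. Per the file headers, the raw intensity values are the mean spot and local background signals, and the processed intensity values are background-subtracted and dye-normalized by Lowess within each array. Per the file headers, LogRatio is the log10 of processed Cy5 over processed Cy3. A further table deposited by the authors has log2 ratios of probes significant in their own test, shifted probe by probe by an unexplained constant; its CD 3 columns do not follow the order of the arrays, and only group means of Irf8 were taken from it.

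The log10 ratios were turned to log2, without control and non-uniform spots, and averaged over the spots of a probe (Python 3.11.15, numpy 2.4.6, pandas 2.3.3; matplotlib 3.10.9 for pictures). Symbols of 18005 probes were set by accession; 698 tested probes lacked a value on some array. Group means were fitted with limma 3.58.1 in R 4.3.3 (eBayes, two-sided), adjusted by Benjamini-Hochberg over 19434 probes. Alternatives were the Cy5 signal alone, median-centring, filters (13860 probes under the strict one), slide as a fixed or random block, the rat number as a block, array weights, normexp with loess, the methods' ANOVA with Tukey's test, each array left out, and 2 non-uniform arrays left out. Steps were tested on simulated data.

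A gene's main probe has the highest mean log2 Cy5. Named are all members; in each pathway list the 3 genes brightest in Cy5 and the 3 tested genes of smallest F test p; and for each member the 3 genes of highest r. Not every gene that this rule takes is reported here. The members and lists were chosen with earlier results of these data known. No source states that rats shared anything but their group.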

Additional observations from a re-analysis of the deposited data

Results flagged for a closer look

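Over 36 sets of a member probe's values in a group, 1 held a sample far from the others: the ratio of Gbp2 in BD 14 rat 2 was −2.36, with the next lowest at −0.42, and the gap was 0.655 of the group's range. This array is 1 of the 4 with a high Gbp2 reference signal (11.83). In quantile-normalized Cy5 alone the same rat was the highest of BD 14 for Gbp2 (9.50). Without quantile normalization rat 2 had 9.41 and rat 6 of BD 14 had 9.53. Chance sets a sample apart in this way in about 1 in 20 groups.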

How the results depend on the processing

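Of 308 recounts of the called members, 9 took a gene by any of its probes and the rest by its brighter or only probe. The count stayed at 0 in 307. In 1 it did not: with the Cy5 signal alone, 1 member (Ifih1) was called in BD 14 against CD 3. The second Irf1 probe, outside the counts by brighter or only probes, was called in that comparison without CD 3 rat 2 (adjusted p = 0.0175). Of 1652 recomputed log2 differences of the tested member probes, 99 had the opposite sign, the interaction of diet and time not being counted, and all of these are given here, those from leaving out an array as ranges. None of them passed the test; values within a slide had no test. The cause of each was not tested, except that leaving out arrays leaves fewer samples.

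With Cy5 alone the differences of opposite sign were 0.070 for Stat2 in BD 14 against BD 3, 0.040 for Irf1 with diet and 0.11 for Irf9 in BD 3 against CD 3. With median-centred arrays they were −0.038 for Stat2 and −0.017 for Ifih1 in BD 14 against CD 14, −0.011 for Stat2 with time and −0.0012 for Ifih1 with diet. With array weights, Stat2 had −0.00041 in BD 14 against CD 14 and −0.012 with time. Irf1 had 0.040 in BD 3 against CD 3 and 0.11 with diet, and Ifih1 had −0.18 in BD 3 against CD 3, −0.069 in BD 14 against CD 14 and −0.12 with diet. Without the 2 arrays of most non-uniform spots, a setting chosen after seeing the data, CD 14 against CD 3 gave −0.087 for Stat2 and −0.18 for Irf9, Stat2 had −0.071 with time, and Ifih1 had −0.084 in BD 3 against CD 3. With normexp and loess, Irf1 had 0.012 with diet and Irf9 0.020 in BD 3 against CD 3.

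With the slide as a random block, Stat2 had 0.0062 in BD 14 against BD 3, Irf9 0.022 in BD 3 against CD 3 and Gbp2 −0.0079 in BD 14 against CD 14. With the slide as a fixed block, Stat2 had 0.28 in BD 14 against BD 3, Irf9 0.61 in BD 3 against CD 3 and Ddx58 0.072 in BD 14 against CD 14. The brighter Irf1 probe had −0.42 in BD 14 against CD 14, −0.57 in CD 14 against CD 3, −0.63 in BD 14 against BD 3, −0.997 in BD 14 against CD 3 and −0.60 with time. The second Irf1 probe had −0.46 in BD 3 against CD 3, −0.42 in CD 14 against CD 3, −0.17 in BD 14 against CD 3, −0.065 with time and −0.11 with diet. Gbp2 had −0.84 in BD 3 against CD 3, −0.89 in BD 14 against CD 14, −1.15 in CD 14 against CD 3, −1.20 in BD 14 against BD 3, −2.04 in BD 14 against CD 3, −1.17 with time and −0.87 with diet. Within slide E, CD 14 against CD 3 gave −0.19 for Stat2, −0.79 and −1.16 for the Irf1 probes, −0.28 for Irf9 and −1.71 for Gbp2. Within slide C, BD 14 against CD 14 gave −0.42 for Irf1, −0.89 for Gbp2 and 0.072 for Ddx58, and within slide B, BD 3 against CD 3 gave 1.34 for Irf9 and −0.43 for Gbp2.

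With each array left out in turn, the differences that took both signs went from −0.088 to 0.14 for Stat2 in BD 14 against CD 14, from −0.13 to 0.050 in BD 14 against BD 3 and from −0.022 to 0.093 with time. For the brighter Irf1 probe they went from −0.56 to 0.11 in BD 3 against CD 3, −0.18 to 0.45 in CD 14 against CD 3 and −0.16 to 0.17 with diet, and for the second from −0.094 to 0.89 in BD 3 against CD 3. Irf9 went from −0.44 to 0.15 in BD 3 against CD 3 and from −0.12 to 0.47 in CD 14 against CD 3. Gbp2 went from −0.10 to 1.18 in BD 3 against CD 3, −0.15 to 0.59 in BD 14 against CD 14 and −0.081 to 1.01 in BD 14 against BD 3. Ddx58 went from −0.13 to 0.053 in BD 14 against CD 14 and from −0.0016 to 0.15 with diet. Ifih1 went from −0.087 to 0.24 in BD 3 against CD 3, −0.18 to 0.27 in BD 14 against CD 14 and −0.064 to 0.17 with diet.

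Without 1 array, the other differences with time kept their sign and went from 0.27 to 0.42 for Ddx58, 0.53 to 0.75 for Ifih1, 0.35 to 0.65 for Irf9, 0.43 to 0.97 for Gbp2 and 0.18 to 0.53 and 0.81 to 1.30 for the Irf1 probes. Those with diet went from 0.060 to 0.18 for Stat2, 0.036 to 0.33 for Irf9, 0.032 to 0.67 for Gbp2 and 0.43 to 0.93 for the second Irf1 probe. In BD 3 against CD 3 they went from 0.056 to 0.36 for Ddx58 and 0.10 to 0.32 for Stat2. In BD 14 against CD 14 they went from 0.41 to 0.58 for Irf9 and 0.030 to 0.39 and 0.66 to 1.17 for the Irf1 probes. In CD 14 against CD 3 they went from 0.38 to 0.58 for Ddx58, 0.51 to 0.83 for Ifih1, 0.010 to 0.24 for Stat2, 0.32 to 1.25 for Gbp2 and 0.28 to 1.26 for the second Irf1 probe. In BD 14 against BD 3 they went from 0.056 to 0.37 for Ddx58, 0.41 to 0.86 for Ifih1, 0.70 to 0.99 for Irf9 and 0.24 to 0.77 and 1.11 to 1.51 for the Irf1 probes. In BD 14 against CD 3 they went from 0.32 to 0.53 for Ddx58, 0.46 to 0.92 for Ifih1, 0.39 to 0.99 for Irf9, 0.056 to 0.26 for Stat2, 0.48 to 1.53 for Gbp2 and 0.052 to 0.69 and 1.24 to 2.23 for the Irf1 probes.

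The interaction took the opposite sign with Cy5 alone for the second Irf1 probe (−0.996) and Ifih1 (0.52), with the slide as a fixed block for Irf9 (−0.19) and the brighter Irf1 probe (−0.062), with array weights for Ifih1 (0.11), and without the 2 non-uniform arrays for Ifih1 (0.20) and Stat2 (0.032). Without 1 array it went from −1.02 to 0.26 for Gbp2 and from −0.24 to 0.22 for Ifih1, and it was called in none of these. For the others it went from −0.42 to −0.11 for Ddx58, 0.36 to 0.95 for Irf9, −0.30 to −0.065 for Stat2 and 0.13 to 0.80 and 0.069 to 1.06 for the Irf1 probes.

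The counts over all probes moved more. Without 1 array, the F test called 0 to 140 probes (5 with all arrays), BD 3 against CD 3 called 0 to 93 and CD 14 against CD 3 called 0 to 205 (both 0 with all arrays), the highest in each case without CD 3 rat 5. BD 14 against CD 3 called 3 to 1411, the highest without CD 3 rat 2, and time 21 to 107. The called effectors went from 0 with a slide block to 11 with Cy5 alone.

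The rat numbers share no pairing: arrays of the same number had a median r of −0.0168 over 31 pairs, and others −0.0239 over 150. With the rat number as a block, 0 members were called in all 9 comparisons. The adjusted p with time was then 0.0968 for Irf7, 0.00864 for Isg15 and 0.0968 for Oasl. Signal over background limits Irf8 and Socs1, which were too dim for the main test. With no filter on dim probes, neither was called in any comparison.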
